A study of Homo sapiens with 6 samples.

Results

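A set of 10 inflammatory cytokine and chemokine genes was examined in THP-1 cells with reduced NFIC expression: TNF, IL1B, IL18, IL1RN, CXCL8, CXCL2, CXCL16, CCL2, CCL3 and CCL4. They were taken by gene name, and all 10 were found among the 33981 genes of the count table. THP-1 is an established human monocytic line from an acute myeloid leukemia (AML). All 6 samples were THP-1 cells that received a lentivirus carrying GFP, were sorted for GFP 4 days after infection and were measured by bulk mRNA sequencing. By the sample labels, the lentivirus carried a scrambled shRNA in 3 control samples (C1, C3 and C4). In the other 3 (N1, N2 and N3) it carried an shRNA against NFIC, a transcription factor of the nuclear factor I family. The authors' methods instead name a GFP-only control vector, and their results list the control samples under partly different names. The labels were followed here. A single NFIC hairpin was used for these samples, so an effect of the hairpin and an effect of lower NFIC cannot be told apart. No source states that samples of a group were separate cultures, so p-values measure the spread between these samples, which may be technical.

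Inflammatory cytokines are secreted or shed by monocytes and macrophages and act on receptors of neighbouring cells. TNF, IL-1 beta and IL-18 start inflammatory signaling, and IL-1 beta and IL-18 are made as inactive precursors that caspase-1 cleaves within the inflammasome. Chemokines attract leukocytes: CXCL8, which has a CXC motif, draws neutrophils, and CCL2, which has a CC motif, draws monocytes. Many of these mRNAs are transcribed through NF-kappaB and are short-lived, because AU-rich elements in the 3′ untranslated region recruit decay factors of the ZFP36 family.

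The AU-rich elements of 5 of the 10 genes are shown because the members differ widely in them. Each line gives the 30 bases of the 3′ untranslated region with the most ATTTA pentamers, written 5′ to 3′ on the strand of the gene (GRCh38, GENCODE canonical transcript), with the pentamers in capitals. The TNF window lies at chr6:31578000-31578029 (plus strand), the IL1B window at chr2:112830002-112830031 (minus), the CXCL8 window at chr4:73743108-73743137 (plus), the CXCL2 window at chr4:74097589-74097618 (minus) and the CCL3 window at chr17:36088492-36088521 (minus).
TNF: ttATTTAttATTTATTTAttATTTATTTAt
IL1B: gagcaaccgcttccctATTTATTTATTTAt
CXCL8: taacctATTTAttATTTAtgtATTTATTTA
CXCL2: agtcttctATTTATTTATTTATTTATTTAt
CCL3: acttaaattttaATTTATTTAtactATTTA

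Over the whole 3′ untranslated region, CXCL2 held 10 ATTTA pentamers, TNF and CXCL8 held 9 each, IL1B held 6 and CCL3 held 4. CCL4 held 2, CXCL16 and CCL2 held 1 each, and IL18 and IL1RN held 0. Of 13651 tested genes with such a region, 71.0% held at least 1 pentamer, with a median of 2. The longer TATTTAT was found 8 times in TNF and in CXCL2, 4 times in IL1B and in CXCL8, and once each in CCL3 and CCL4, against 34.2% of the same genes with any.

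The stretch just before the transcription start is shown for 4 of the members with an entry in the RefSeq promoter table (GRCh38.p14), which had entries for TNF, IL1B, CXCL8, CXCL2, CCL3 and IL1RN. Each line is the 100 bases before the start on the strand of the gene, at chr6:31575465-31575564 (plus) for TNF, chr4:73740469-73740568 (plus) for CXCL8, chr4:74099196-74099295 (minus) for CXCL2 and chr2:112836780-112836879 (minus) for IL1B. Capitals mark matches to the motifs searched. These were the NFI half-site TTGGC, the NFI palindrome and the NF-kappaB consensus by name, and GGAATTTCC, all on both strands, and the TATA box TATAAA on the strand of the gene.
TNF: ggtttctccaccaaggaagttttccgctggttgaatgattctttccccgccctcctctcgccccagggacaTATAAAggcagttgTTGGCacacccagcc
CXCL8: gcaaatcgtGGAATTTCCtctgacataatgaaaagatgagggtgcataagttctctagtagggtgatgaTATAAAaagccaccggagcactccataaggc
CXCL2: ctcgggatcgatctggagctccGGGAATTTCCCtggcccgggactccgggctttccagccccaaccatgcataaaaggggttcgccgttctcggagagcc
IL1B: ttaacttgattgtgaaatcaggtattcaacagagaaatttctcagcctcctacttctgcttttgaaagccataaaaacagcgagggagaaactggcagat

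TATAAA stood 29 bases before the start in TNF and 31 before it in CXCL8, and was in 7.33% of the 35114 promoters of the table. It also stood 29 bases before the start in a window of CCL3 and 30 before it in a window of IL1RN, which are not printed here. GGAATTTCC, which was added after the letters had been seen, stood 91 bases before the start in CXCL8 and 77 before it in CXCL2, where it overlaps matches to the NF-kappaB consensus on both strands. It was in 0.461% of all promoters, and the consensus in 11.3%. The NFI half-site was in 45.6% of all promoters. Within the 300-base windows it stood 15 bases before the start in TNF and 198 before it in CXCL2, and it was also in windows of IL1RN and CCL3. All shares are over such windows, which reach past the start, and the lines show 100 bases of them. The IL1B stretch held no match. A match describes letters and not a bound site.

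NFIC itself (chr19:3314403-3469217, plus strand) checks the labels. Its level in CPM (counts scaled by library size and TMM factors) was 42.1, 41.4 and 42.2 in controls and 19.4, 22.3 and 21.4 after knockdown. NFIC mRNA was therefore at 50.1% of the control mean (log2 fold change −0.99 ± 0.072 SE, edgeR adjusted p = 3.73e-09), with no overlap between the groups. Depth lay between 20369543 and 24809720 counts per sample, so that 3 counts, taken as the detection floor, equal 0.122 to 0.145 CPM. Samples C3 and N3 stood apart from the other 4 on the second principal component (7.37% of variance, against 77.2% for the first, which separated the groups), and the members whose call changed or whose log2 fold change moved by over 1.5 times without them are given both ways.

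The THP-1 label was checked against marker lists. All 10 monocyte markers were in the table, and their summed level was 1148 to 1276 CPM in controls and 1314 to 1511 CPM after knockdown. Of the 9 tested, 3 rose (ITGAM, LYZ and CD14, by log2 fold changes of 0.99, 0.72 and 0.65) and 4 fell (CD68, CD33, CD36 and CSF1R, the first 3 at −1.01, −0.97 and −0.85). FCN1 had at most 6 counts in any sample. The defining T cell marker CD3D had at most 1 count. The summed T and NK cell markers, 6 of 10 in the table, were at 10.0 to 11.3 CPM against 5.34 to 5.95 CPM, with NKG7 (log2 fold change −1.37) and CD8A, which passed the low-count filter only through controls, lower. B cell markers, 6 of 8 in the table, were at 23.1 to 25.2 CPM against 16.4 to 18.0 CPM, with PAX5 (−1.05), CD79A (−0.86) and CD79B (−0.37) lower. Of the erythroid and megakaryocyte markers, 6 of 10 were in the table and 3 were tested. Hemoglobin beta (HBB) had at most 3 counts. The megakaryocyte genes ITGA2B (126, 148 and 140 counts against 34, 40 and 41) and GP9 (44, 42 and 34 against 19, 27 and 20) were detected and fell. GP1BA (128, 91 and 67 against 110, 117 and 100) did not pass the test (log2 fold change 0.21, edgeR adjusted p = 0.380). The sum of this list was 11.3 to 13.9 CPM against 7.15 to 7.93 CPM. Granulocyte markers, 8 of 10 in the table with LTF at most 1 count, summed to 3720 to 4359 CPM against 2084 to 2156 CPM. Of the 6 tested, 5 fell, among them AZU1 (−1.57), PRTN3 (−1.77) and ELANE (−0.52), while CXCR2 rose. CAMP, also among the 5, passed the low-count filter only through controls. The 13 mitochondrially encoded genes summed to 28514 to 30145 CPM against 29994 to 33387 CPM, and 6 of them rose, MT-ND6, MT-CO3 and MT-ND5 by log2 fold changes of 0.27, 0.21 and 0.19. The counts of markers and genes called in these lists stand beside 29.6% of all tested genes that rose and 30.3% that fell. The part of these markers and genes in the cytokine results was not tested. In bulk RNA, fewer expressing cells and less RNA per cell cannot be told apart.

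The cytokine genes moved in both directions. TNF, IL1B, CXCL8 and CCL2 rose with NFIC shRNA, IL18 and IL1RN fell, and CXCL2, CXCL16 and CCL3 did not pass the test. CCL4 did not pass the filter on low counts and was not tested, and CXCL2 passed that filter through the control samples. Of the 9 tested members, 4 rose, where 29.6% of all 19182 tested genes rose, and 2 fell, where 30.3% of all tested genes fell. The samples of the groups did not overlap for 4 members that were higher, beside 32.2% of all tested genes, and for 2 that were lower, beside 33%. Over all tested genes 11486 were called, so the count of members called is not in itself a result about cytokines. The median log2 fold change was −0.12 over the 9 members and −0.01 over all tested genes.

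**Figure D1:**
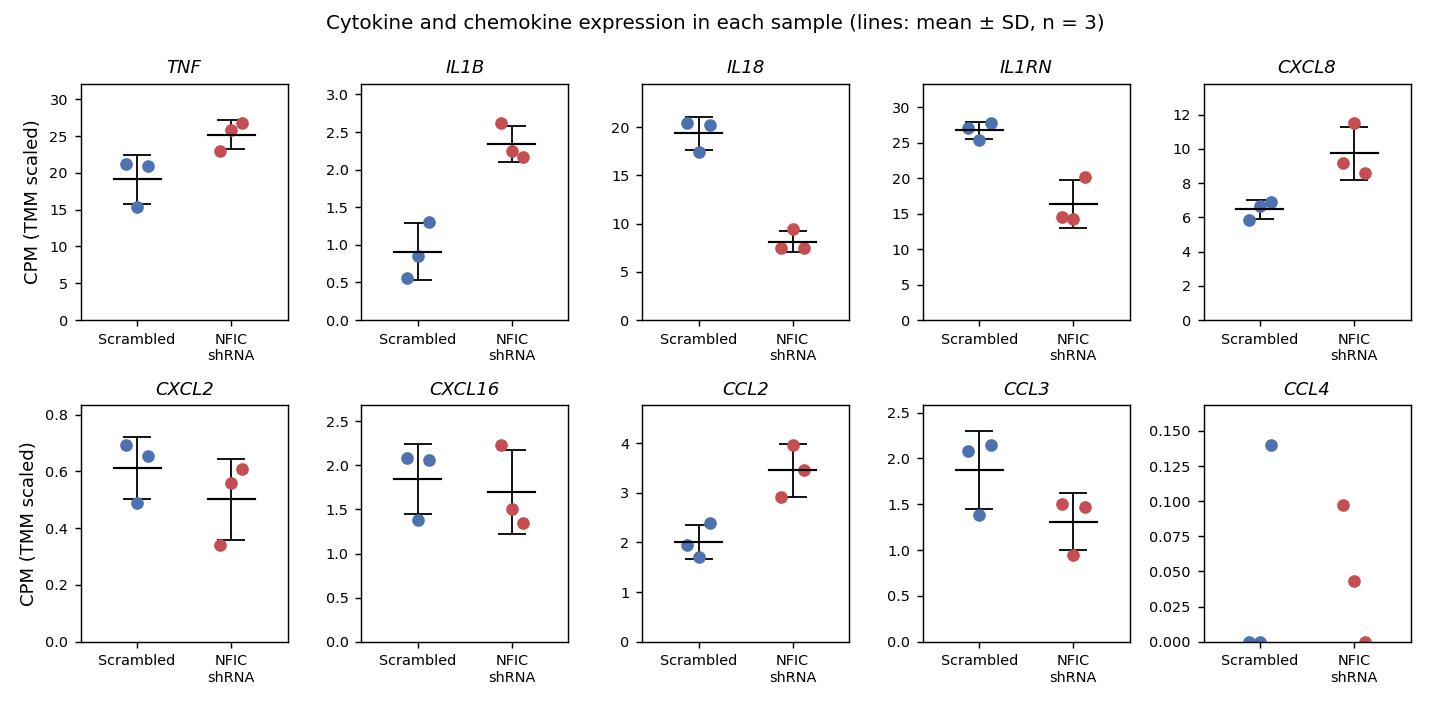
Level of each of the 10 genes in every sample, in TMM-scaled CPM on a linear axis from 0, with scrambled shRNA in blue and NFIC shRNA in red; lines are mean ± SD (n = 3), left out for CCL4, which had at most 3 counts in any sample. TNF, IL1B, CXCL8 and CCL2 lie higher and IL18 and IL1RN lower in all 3 NFIC shRNA samples than in any control.

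TNF (chr6:31575565-31578336, plus strand), the founding cytokine of its superfamily, had 21.2, 15.3 and 20.9 CPM in controls and 22.9, 25.9 and 26.8 CPM after knockdown. Sample C3 was the lowest of the controls, and no NFIC shRNA sample was as low as any control. TNF rose 1.32-fold in mean CPM (log2 fold change 0.40 ± 0.11 SE, edgeR adjusted p = 0.00488). The size of this increase depended on C3: the log2 fold change was 0.26 (adjusted p = 0.0238) without C3 and 0.21 (adjusted p = 0.0371) without C3 and N3. Per length, TNF was the most abundant of the 10 in both groups, at 9.02 to 12.5 FPKM in controls and 13.6 to 16.1 FPKM after knockdown.

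IL1B (chr2:112829751-112836816, minus strand), which encodes the secreted IL-1 agonist, was scarce in THP-1 cells. It had 12, 21 and 28 counts in controls and 54, 52 and 50 counts after knockdown, or 0.905 ± 0.379 and 2.34 ± 0.243 CPM (SD, n = 3). The controls varied more than the NFIC shRNA samples, and the groups did not overlap. IL1B rose 2.59-fold in mean CPM, the steepest increase among the members tested (log2 fold change 1.37 ± 0.27 SE, adjusted p = 3.03e-04).

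IL1RN (chr2:113099315-113134016, plus strand) encodes the IL-1 receptor antagonist, which occupies the IL-1 receptor without signaling. It went the other way, with 27.0, 25.4 and 27.8 CPM in controls and 14.6, 14.3 and 20.2 CPM after knockdown. N3 lay highest of the NFIC shRNA samples and still below every control. The mean was 61.1% of control (log2 fold change −0.71 ± 0.11 SE, adjusted p = 4.95e-05).

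The agonist and its antagonist can be set against each other within each sample. For each IL1B count there were 48.8, 29.8 and 21.3 IL1RN counts in C1, C3 and C4, and 5.56, 6.37 and 9.34 in N1, N2 and N3. IL1RN thus outnumbered IL1B in every sample, by less in each NFIC shRNA sample than in any control. The difference IL1B minus IL1RN in log2 CPM was −4.82 ± 0.54 (SD, n = 3) in controls and −2.74 ± 0.38 after knockdown. The shift of 2.08 on the log2 scale had a two-sided exact permutation p = 0.1, the smallest that 3 against 3 samples can give, so this design cannot pass 0.05 for a single value.

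**Figure D2:**
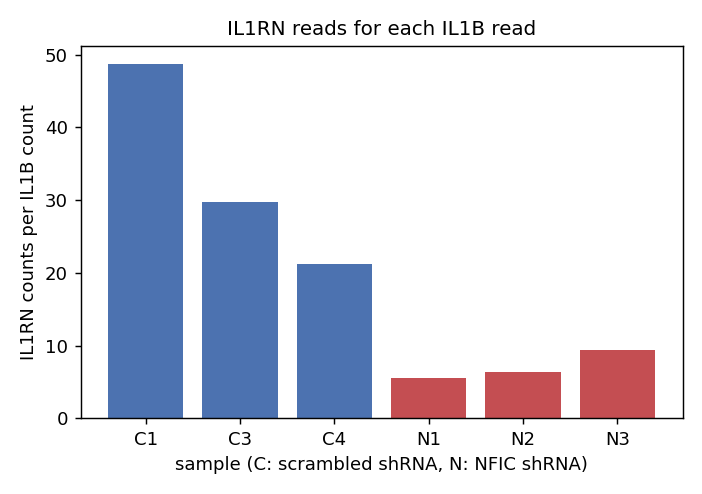
IL1RN counts for each IL1B count in each sample, on a linear axis from 0, with scrambled shRNA in blue and NFIC shRNA in red. The 3 controls lie between 21.3 and 48.8 and the 3 NFIC shRNA samples between 5.56 and 9.34.

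IL18 (chr11:112143253-112164096, minus strand), the other inflammasome-dependent cytokine, fell furthest of the members tested. It had 20.4, 17.4 and 20.2 CPM in controls and 7.52, 9.40 and 7.50 CPM after knockdown. The highest NFIC shRNA sample was well below the lowest control. Its mean was 42.1% of control (log2 fold change −1.24 ± 0.11 SE, adjusted p = 3.63e-08). A gene on the opposite strand, ENSG00000255292, spans part of IL18 but shares 0 exon bases with it.

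CXCL8 (chr4:73740519-73743716, plus strand), the neutrophil attractant interleukin-8, had 5.83, 6.66 and 6.91 CPM in controls and 9.17, 11.5 and 8.58 CPM after knockdown. All 3 NFIC shRNA samples lay above all controls. It rose 1.51-fold in mean CPM (log2 fold change 0.59 ± 0.13 SE, adjusted p = 9.05e-04).

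CCL2 (chr17:34255274-34257208, plus strand), the monocyte attractant also called MCP-1, had 1.94, 1.71 and 2.38 CPM in controls and 2.91, 3.97 and 3.47 CPM after knockdown. The groups did not overlap. CCL2 rose 1.72-fold in mean CPM (log2 fold change 0.79 ± 0.20 SE, adjusted p = 0.00214).

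CXCL2 (chr4:74097040-74099196, minus strand), a CXCR2 ligand close in sequence to CXCL1 and CXCL3, had 15, 12 and 14 counts in controls and 7, 13 and 14 after knockdown. The log2 fold change was −0.26, with a 95% interval from −1.04 to 0.53 (adjusted p = 0.566). CXCL16 (chr17:4733533-4739928, minus strand), a membrane-bound chemokine released by ADAM10, had 45, 34 and 44 counts against 46, 35 and 31. Its log2 fold change was −0.12, with a 95% interval from −0.65 to 0.41 (adjusted p = 0.701). For both genes the groups overlapped. The CXCL2 value was −0.56 (adjusted p = 0.334) without C3 and N3 and −0.05 (adjusted p = 0.922) without N1. CXCL16 shares 76 exon bases with MED11 and 96 with ZMYND15 on the opposite strand, and the library kit does not mark strand.

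CCL3 (chr17:36088256-36090169, minus strand), the macrophage inflammatory protein MIP-1 alpha, had 45, 34 and 46 counts in controls and 31, 22 and 34 after knockdown. In CPM, N1 and N3 lay above C3, the lowest control, so the groups overlapped. The log2 fold change was −0.51, with a 95% interval from −1.06 to 0.04 (adjusted p = 0.0994). Without C3 it was −0.70 (adjusted p = 0.0311), and without C3 and N3 it was −0.80 (adjusted p = 0.0185), whereas without N2 it was −0.31 (adjusted p = 0.331), without C4 −0.40 (adjusted p = 0.270) and without C1 −0.43 (adjusted p = 0.234). Whether CCL3 is called therefore depends on the samples kept.

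CCL3 has a near-identical copy, CCL3L3, and reads of the pair cannot be assigned with certainty. CCL3L3 had 156, 138 and 142 counts in controls and 67, 71 and 55 after knockdown, and fell on its own (log2 fold change −1.16 ± 0.16 SE, adjusted p = 8.54e-06). Summed over the copies, the counts were 201, 172 and 188 against 98, 93 and 89, and CCL3 then fell as well (log2 fold change −0.99, adjusted p = 1.58e-05). CCL3 also shares 1115 exon bases with the antisense gene CCL3-AS1, which had 5 to 14 counts in any sample. CCL3L3 shares 342 exon bases with ENSG00000274767 on the opposite strand, which had 86, 70 and 36 counts in controls and 34, 36 and 24 after knockdown. CCL4 (chr17:36103827-36105621, plus strand), MIP-1 beta, had 0, 0 and 3 counts against 2, 1 and 0, at or under the floor in every sample, and no fold is given. Its copy CCL4L2 had 9, 4 and 3 counts against 8, 1 and 1 and was not tested.

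Ranked by length-scaled level, the scrambled samples had TNF first (11.3 FPKM), then IL1RN (8.11 FPKM) and IL18 (7.34 FPKM), whose ranges overlapped, then CXCL8 (2.85 FPKM). With NFIC shRNA the order was TNF, IL1RN (5.02 FPKM) and CXCL8 (4.35 FPKM), whose ranges overlapped, then IL18 (3.12 FPKM). TNF made up 33.9% of the summed FPKM of the 10 genes in controls and 47.1% with NFIC shRNA, and IL18 made up 22.1% and 9.79%. The remaining members were at or below 1.73 FPKM in both groups: CCL2 and CCL3 overlapped in controls only, and IL1B overlapped CXCL2 in controls and both CCL3 and CXCL16 with NFIC shRNA. The rank of CCL3 and all shares leave out its copy CCL3L3, which had 4.36 FPKM in controls and 1.97 FPKM with NFIC shRNA.

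Receptors of these ligands, with decoys and binding proteins, formed a list of 18 genes. Of the 13 tested, 7 rose and 3 fell, with a median log2 fold change of 0.31. These counts, and those of the lists that follow, stand beside 29.6% of all tested genes that rose and 30.3% that fell. IL18R1 and IL18RAP among the 7, and CCR3 among the 3, passed the low-count filter only through the group in which they are high. Their p-values are therefore not given, but the counts and the median of this list include them. For IL-1, both receptor chains rose with IL1B. IL1R1, the signaling receptor, had 43, 56 and 47 counts against 152, 147 and 176 (log2 fold change 1.72 ± 0.15 SE, adjusted p = 4.66e-08). IL1RAP, the shared co-receptor, had 678, 718 and 629 counts against 813, 846 and 869 (log2 fold change 0.34, adjusted p = 3.80e-04).

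For IL-18, the ligand fell while receptor counts were higher after knockdown. IL18R1, the ligand-binding chain, had 8, 5 and 9 counts in controls and 56, 66 and 99 after knockdown, with no overlap. IL18RAP, the signaling chain, had 0, 2 and 4 counts against 12, 15 and 39. IL18BP, the secreted protein that neutralizes IL-18, rose from 19.2 to 23.8 CPM (log2 fold change 0.31, adjusted p = 0.00325).

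For the chemokines, CCR2 and CXCR2 went opposite ways. CCR2, the receptor of CCL2, had 3292, 3540 and 3411 counts in controls and 517, 575 and 589 after knockdown (log2 fold change −2.59 ± 0.060 SE, adjusted p = 1.20e-14), while CCL2 rose. CXCR2, the receptor of CXCL8 and CXCL2, had 356, 455 and 306 counts against 578, 653 and 814 (log2 fold change 0.89, adjusted p = 2.36e-06). CCR1, a receptor of CCL3, fell from 54.9 to 43.2 CPM (log2 fold change −0.35, adjusted p = 2.68e-04), and CCR3 had 22, 17 and 18 counts against 1, 3 and 3, the latter at or under the floor. CXCR1, the other receptor of CXCL8, had at most 2 counts and was not tested.

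For TNF, TNFRSF1A rose (log2 fold change 0.49 ± 0.050 SE, adjusted p = 2.57e-07), and TNFRSF1B had a log2 fold change of 0.11 (adjusted p = 0.0832). SIGIRR and ACKR2 did not pass the test either, with log2 fold changes of −0.10 (adjusted p = 0.460) and −0.61 (adjusted p = 0.110).

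**Figure D3:**
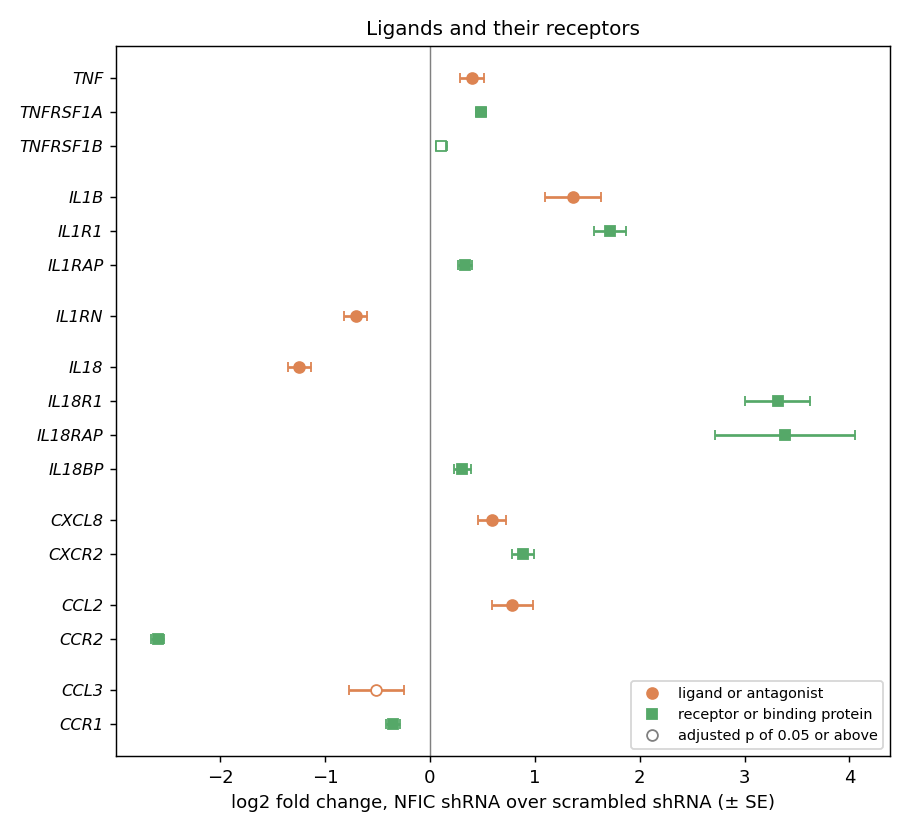
Log2 fold change of NFIC shRNA over scrambled shRNA, ± SE from edgeR, for ligands or antagonists (orange circles) and their receptors or binding proteins (green squares); open symbols have an adjusted p of 0.05 or above. IL1B and its receptor chains lie right of 0. IL18 lies left, while IL18R1 and IL18RAP lie furthest right. Both were under the filter level in controls and passed the low-count filter only through NFIC shRNA samples. Their filled symbols and SE bars are not to be read as passed tests. CCL2 lies right while CCR2 lies furthest left of the genes drawn, which do not include CCR3.

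Of 20 genes for processing and release of these cytokines, 19 were in the table and 17 were tested: 6 rose and 4 fell. NLRP3, the sensor of the best known inflammasome, rose from 123 to 210 CPM (log2 fold change 0.78 ± 0.057 SE, adjusted p = 4.06e-09), and MEFV, which encodes the sensor pyrin, rose as well (log2 fold change 1.04, adjusted p = 2.75e-09). ADAM10, the sheddase of CXCL16, rose (log2 fold change 0.75, adjusted p = 1.69e-09). CASP1, which cleaves both precursors, had a log2 fold change of −0.16 (adjusted p = 0.0731), and ADAM17, the sheddase of TNF, one of 0.07 (adjusted p = 0.293). TIMP3, an inhibitor of ADAM17, fell (log2 fold change −1.39, adjusted p = 4.34e-06), as did RHBDF1 (−1.17, adjusted p = 4.17e-05) and the inflammatory caspase gene CASP4 (−0.41, adjusted p = 6.81e-05).

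All 12 genes of the mRNA decay list were tested, and 5 rose and 3 fell. ZFP36, which encodes tristetraprolin, rose by a log2 fold change of 0.31 (adjusted p = 2.71e-04), and its relatives ZFP36L1 and ZFP36L2 fell (−1.42, adjusted p = 8.93e-08, and −0.50, adjusted p = 1.74e-07). ARID5A, an mRNA-stabilizing protein, rose (0.51, adjusted p = 5.05e-05), as did RC3H1 (0.29, adjusted p = 2.27e-04), which encodes roquin-1. TIAL1 fell (−0.19, adjusted p = 0.00615).

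Of 22 tested genes of the NF-kappaB pathway, 12 rose and 4 fell, with a median log2 fold change of 0.23. The kinase gene CHUK rose (0.65, adjusted p = 2.88e-08), as did the inhibitor gene NFKBIB (0.83, adjusted p = 1.93e-07). NFKBIA, encoding the inhibitor I-kappa-B alpha, fell (−0.47, adjusted p = 7.24e-06), as did TNIP1 (−1.03, adjusted p = 2.32e-10) and IRAK1 (−0.62, adjusted p = 2.19e-07). Of 17 tested transcription factors of cytokine promoters, 6 rose, among them EGR1 (0.45, adjusted p = 0.00115), FOSL2 (0.24, adjusted p = 0.00341) and JUNB (0.33, adjusted p = 0.00384). HIF1A (−0.41, adjusted p = 1.07e-05), IRF5 (−0.25, adjusted p = 9.42e-04) and IRF8 (−0.18, adjusted p = 0.00638) were the 3 that fell.

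Other chemokines were mostly at low counts: 24 of 35 were in the table, the rest were not analysed here, and 7 were tested. CXCL1 had 7, 7 and 7 counts in controls and 30, 34 and 15 after knockdown, and passed the filter only through the knockdown samples. It was the 1 gene of this list called higher. Lower calls were made for 5 genes, of which CCL24 passed the filter only through controls, and included CCL5 (from 62.6 to 18.2 CPM, log2 fold change −1.78, adjusted p = 7.33e-11), CCL20 (−1.27, adjusted p = 8.76e-06) and CCL28 (−0.53, adjusted p = 5.30e-05). Of 18 other cytokines tested, 5 rose and 6 fell, IL12A and OSM among the 6 having passed the filter only through controls. TNFSF10, which encodes the death ligand TRAIL, rose from 7.91 to 25.9 CPM (log2 fold change 1.70, adjusted p = 2.79e-08), and TNFSF9 and TGFB1 rose by 0.48 (adjusted p = 1.10e-05) and 0.36 (adjusted p = 4.25e-06). TNFSF13 (−1.49, adjusted p = 5.76e-08), IL23A (−0.97, adjusted p = 1.62e-06) and MIF (−0.97, adjusted p = 2.43e-06) fell. IL6, IL1A and IL10 had at most 3 counts in any sample.

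The genes whose profile over the 6 samples was closest to each member were found among 114 others of these lists, by the root mean square difference in centred log2 CPM. TNF was closest to JUN (0.0985) and RELA (0.119), CXCL8 to ARID5A (0.151), CCL2 to BCL3 (0.174) and TNFAIP3 (0.179), and IL1B to IL1R1 (0.345). IL18 was closest to ZFP36L1 (0.135) and IL1RN to CASP4 (0.199).

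**Figure D4:**
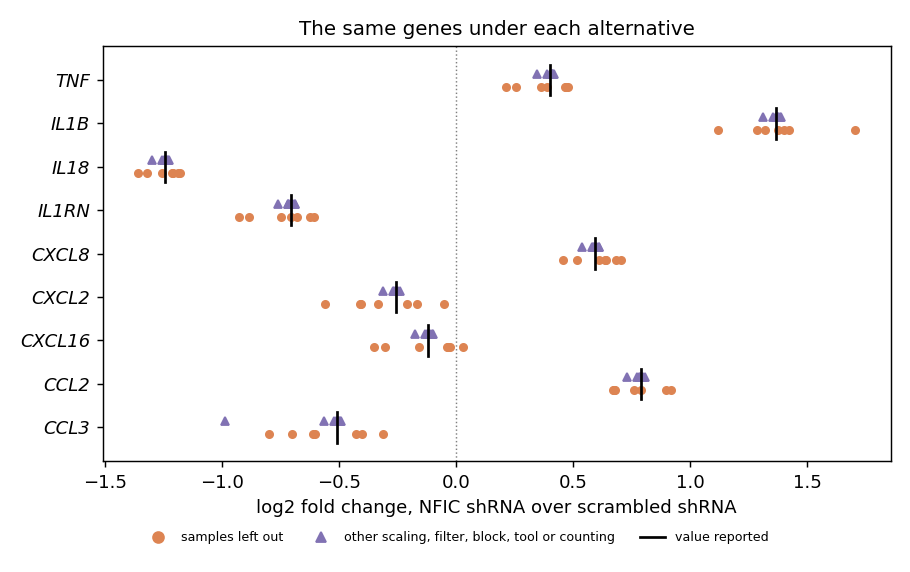
Log2 fold change of the 9 tested members as reported (black line), with samples left out (orange circles) and with another scaling, filter, replicate block, tool or counting of near copies (purple triangles). The 6 called genes stay on their side of 0, TNF falls to 0.21 without C3 and N3, and CXCL16 crosses 0 in 1 setting.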

How the data were processed

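The authors trimmed paired-end reads with Trim Galore, aligned these to GRCh38 by STAR and summarized them per gene in featureCounts; the deposited count of each gene is not normalized, and whether marked duplicates were counted is not given in the sources used here. The authors also deposited a normalized signal (counts scaled by DESeq2 size factors, with their mean) and FPKM values made from it with a gene length, another deposited column. The deposited log2 fold change with its error, Wald score and p-value are the authors' own comparison and were not used.

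From the counts, edgeR 4.0.16 in R 4.3.3 was run with TMM factors, its low-count filter and the robust quasi-likelihood test, two-sided, on 3 NFIC shRNA against 3 scrambled samples without a block. Benjamini-Hochberg adjustment covered all 19182 genes tested, with a threshold of 0.05. The SE is the log2 fold change divided by the square root of F. IL1B and IL1RN were compared in log2 CPM with a prior count of 2. The method was tested on simulated data. Positions and 3′ untranslated regions come from GENCODE 44. The floor of 3 counts marks detection only, and genes above it still carry counting error.

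The members and gene lists were chosen with earlier results of these data known. Named were all members, their near copies and tested receptors, and up to 3 genes of each list in each direction with the smallest adjusted p. CSF1R, GP1BA, CASP1, ADAM17, undetected genes and markers at or near 0 fall outside that rule and were added with values known. A gene of the receptor list is not reported here.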

Additional observations from a re-analysis of the deposited data

How the results depend on the processing

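The 6 called members kept their direction and passed the threshold in all 16 alternatives: DESeq2, other size factors, upper-quartile or total-count scaling, other filters, both blocks, copies summed, each sample left out, and C3 and N3 left out (chosen after seeing the data). Their highest adjusted p was 0.0371, for TNF. With samples left out in turn, 4 members rose throughout and 2 to 3 fell, 10443 to 11300 genes were called (11486 in full), and the IL1B to IL1RN shift was 1.79 to 2.33. CXCL16 ranged from −0.35 to 0.03 and reversed without N3 (0.028, adjusted p = 0.937). CCL3 was called lower without C3, without C3 and N3, and with copies summed.

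No pairing by replicate number was visible (correlations of deviations 0.0563, −0.0863 and −0.0446), which cannot show how the samples were prepared. Pairing on sample names gave 0.0563 (C1 with N1), 0.145 (C3 with N3) and 0.0267 (C4 with N2), of which 1 is over 0.1. C4 and N2 share no number in their names and were paired as the samples left over. The replicate block by number called 10983 genes and the block by sample name 12099, with 4 members higher and 2 lower under either. CXCL2, CXCL16, CCL3 and IL1B had 54 counts or fewer per sample, and CCL4 could not be tested at this depth. The filter of 10 counts in every sample left out CXCL2. Scaling moved the median of all genes to between −0.07 and 0.01.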
